A study of Homo sapiens with 4 samples.

Results

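The weak control regions lost after CHD7 knockdown are 2542 stretches of accessible chromatin of RKO, a cell line from a human colon cancer. They were chosen by the peak lists themselves. A region had to hold a peak in both control libraries and in neither shCHD7-2 library, and the mean of its percentile ranks in the 2 control lists had to be under 70. The percentile rank runs from 0 to 100 within a list and orders peaks by their -log10 p, the strength the peak caller gave them. The 2542 regions are part of 20450 regions obtained by merging the peaks of all 4 libraries on chromosomes 1 to 22 and X, and of 8557 regions called in both control libraries. Because the calls and the ranks chose the members, both are given as a description, with no test.

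ATAC-seq measures where the Tn5 transposase can reach DNA, so that sequenced fragments pile up over open chromatin. Cells carrying a control lentivirus were set against cells carrying a lentivirus for shCHD7-2, a short hairpin RNA against CHD7, both as stable lines with 2 libraries each. A single hairpin stands for the knockdown, and the sources used here do not say whether the lines were clones, how long after infection they were taken, or whether a group's libraries came from separate cultures. The level of CHD7 was not measured by these files.

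CHD7 is a chromodomain helicase that spends ATP to slide nucleosomes along DNA, and it is known to bind enhancers and promoters in many cell types. An accessible region is usually a promoter or an enhancer where regulatory proteins have displaced a nucleosome. A weak region in an ATAC-seq list can be one that is open in few cells, or one that is open for a short part of the time, and such regions lie closest to the limit of detection. All positions below are on hg19, counted from 1. No genome sequence or gene annotation of that build was used here, so no sequence is shown and no gene is assigned to a region.

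The files hold no read totals. For each library, the reads expected by chance at a summit (the library background) were recovered from the deposited values. They were 0.916 and 0.843 reads in control replicates 1 and 2, and 1.40 and 1.62 reads in shCHD7-2 replicates 1 and 2, a ratio of group means of 1.72. Where the reads around a peak raised its background further, the values fell on steps of 0.02 reads in 100% of such peaks in every library. The shCHD7-2 libraries thus had the higher background and the shorter lists, 7199 and 8715 peaks against 13257 and 12092.

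Weak regions were missing after knockdown more often than strong ones. Of the 5130 control regions with a mean percentile under 70, 49.6% were lost. The share was 34.4% over all 8557 regions called in both control libraries and 11.8% over those with a mean percentile of 70 or more, where 405 were lost. The weak regions that were not lost divided into 1468 kept in 1 shCHD7-2 library and 1120 kept in both. Taken singly, shCHD7-2 replicate 1 lacked a peak at 50.5% of all control regions and replicate 2 at 44.2%.

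The share lost fell steadily with rank. In the band from percentile 0 to 10, 81 of 99 regions were lost, which is 81.8% (exact binomial 95% interval 72.8% to 88.9%). In the band from 30 to 40 it was 513 of 877 (58.5%, 55.2% to 61.8%), and in the band from 60 to 70 it was 365 of 1164 (31.4%, 28.7% to 34.1%). The fall went on past the limit without a step, with 21.8% lost between percentiles 70 and 80. Intervals here and below cover counting error over regions, treated as independent, and no variation between cultures. The rank limit thus divides a continuous series.

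**Figure D1:**
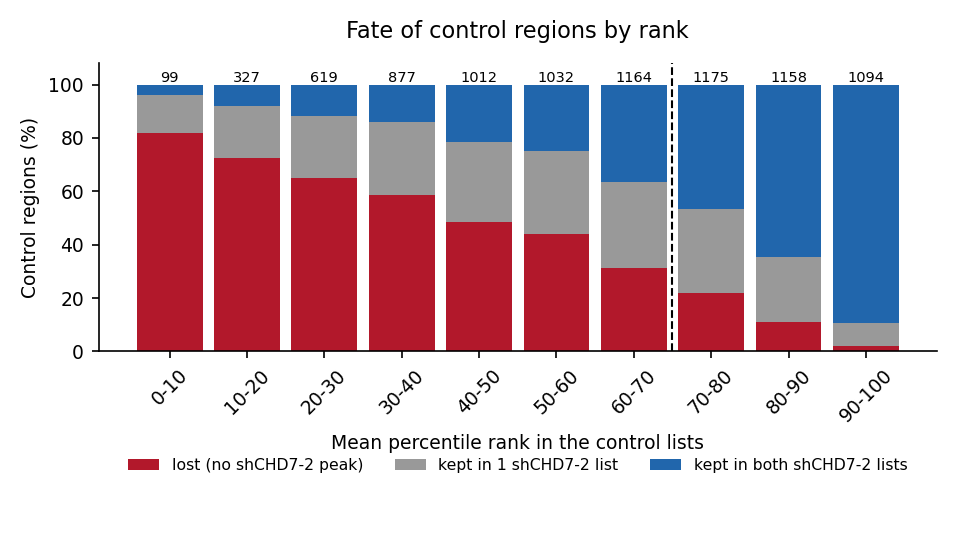
Share of control regions (called in both control libraries, y axis, percent) that were lost (red), kept in 1 shCHD7-2 library (grey) or kept in both (blue), in bands of mean percentile rank in the control lists (x axis). Numbers above the bars are regions, and the dashed line is the limit of 70; the red share falls from 81.8% in the lowest band to 2.01% in the highest.

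The 5 members nearest to the limit show what its upper edge looks like. A region of 906 bp on chromosome 12 from 27863177 to 27864082 stood at 69.97 on average, and 15 reads piled up at the summit in each control library. On chromosome 2 from 36665536 to 36666060, the mean percentile was also 69.97, and the summits held 16 reads in control replicate 1 and 13 in replicate 2. A region on chromosome 12 from 2113305 to 2113935 held 14 and 13 reads. The percentiles of these 3 regions differed between the controls by 7.62, 13.2 and 3.98 points. None of the 3 had a shCHD7-2 peak nearer than 80221 bp. The fourth, on chromosome 4 from 84255891 to 84256514, had 21 reads in control replicate 1 and 13 in replicate 2, so that its percentiles were 86.3 and 53.5. The fifth, on chromosome X from 153059481 to 153060053, had 17 and 16 reads.

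Just outside the limit, the first lost region was on chromosome 3 from 49131399 to 49132226, with a mean percentile of 70.06 and 15 and 18 reads in control replicates 1 and 2. It was followed by chromosome 20 from 45034558 to 45035661, with 17 and 19 reads, and by chromosome 12 from 104350565 to 104351432, with 20 and 18 reads. Their pileups overlapped with those of the 5 regions just inside.

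At the lower end, the weakest member was a region of 202 bp on chromosome 2 from 108786617 to 108786818, at 0.743. The pileup was 6 reads in each control library, which is the lowest pileup listed in either of them. The next were on chromosome 19 from 41109698 to 41110095, with 8 and 9 reads, and on chromosome 1 from 2574362 to 2574737, with 9 reads in each. The last of these lay 439 bp from a peak of shCHD7-2 replicate 2 that held 13 reads.

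Most members were shallow, though few sat right at the caller's limit. The median summit pileup was 12 reads in control replicate 1, with quartiles of 10 and 15 and a range of 6 to 44. In control replicate 2 the median was 11 reads, with quartiles of 9 and 13 and a range of 6 to 36. The mean of the 2 library medians was 11.5 ± 0.707 reads (SD, n = 2). Median fold enrichment over the local background was 5.47 in control replicate 1 and 5.43 in replicate 2. In 2491 of the 2542 members (98.0%) both control peaks had a -log10 q of at least 2, and in 879 (34.6%) both reached 5. Over all 8557 regions called in both control libraries these shares were 99.2% and 66.5%. In weak regions kept in both shCHD7-2 libraries they were 99.7% and 60.4%. The -log10 q follows the -log10 p that ranked the regions, so the lower shares are tied to the choice of members. The control lists themselves end at a -log10 q of 1.32 and 1.31, so few members sat at the very edge of the control lists.

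Weak regions that survived in the shCHD7-2 libraries were somewhat higher in the controls. Those kept in 1 library had median summit pileups of 14 and 13 reads in control replicates 1 and 2, and those kept in both had 14 reads in each. The strong lost regions had 20 and 19 reads. A summit of 10 reads or fewer was seen in 33.2% of members in control replicate 1 and in 41.1% in replicate 2, against 14.6% and 18.3% of the weak regions kept in both. Pileup is part of the -log10 p that ranked the regions, so this order is tied to the fall of the lost share with rank. At like rank the medians were close. Between percentiles 40 and 50 they were 12 reads for lost regions, 13 for those kept in 1 library and 13 for those kept in both in control replicate 1. In control replicate 2 they were 12, 12 and 12.5. Whether rank alone accounts for the order was not tested.

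**Figure D2:**
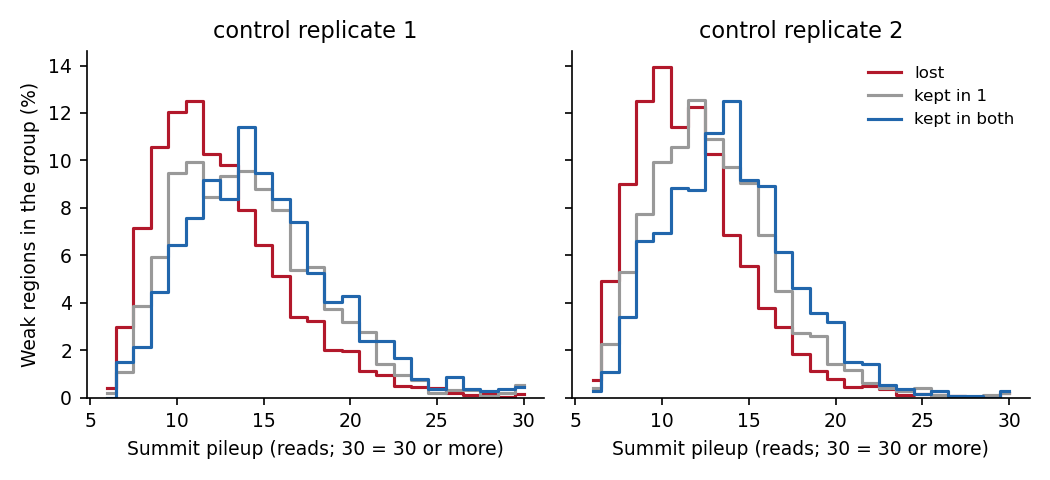
Distribution of the summit pileup (x axis, reads, with 30 standing for 30 or more) in weak control regions, as a percent of each group (y axis), for control replicate 1 (left) and control replicate 2 (right). Lost regions (red) have medians of 12 and 11 reads, regions kept in 1 shCHD7-2 library (grey) 14 and 13, and regions kept in both (blue) 14 and 14.

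The control libraries often ranked the members differently, about as much as they did the weak regions that were kept. The percentile ranks differed between the control lists by a median of 17.6 points, and by over 30 points in 649 members (25.5%). The latter share was 28.3% in weak regions kept in 1 shCHD7-2 library and 27.6% in those kept in both. Over all regions called in both control libraries it was 16.9%. A mean under 70 could therefore hide a strong peak: in 390 members (15.3%) 1 of the 2 control peaks stood at percentile 70 or above, and in 4 members it stood at 90 or above. A control peak at 70 or above was more common in weak regions kept in 1 shCHD7-2 library (25.6%) and in both (37.9%). Across the 2542 members, Pearson's r between control replicates 1 and 2 was 0.256 for the percentile, 0.542 for the pileup and 0.315 for the peak width. In weak regions kept in both shCHD7-2 libraries the same values were 0.0431, 0.382 and 0.449. These are correlations across regions that share their 2 libraries, and the limit on the mean rank narrows the range of the percentile. The region with the largest difference lay on chromosome 6 from 101328701 to 101329389, with 29 reads and percentile 92.9 in control replicate 1 against 10 reads and percentile 13.1 in replicate 2. Next were chromosome 12 from 96839476 to 96840054, with 23 and 9 reads, and chromosome 15 from 80263107 to 80263726, with 24 and 9 reads. In each of these 3 regions control replicate 1 was the higher one.

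Summits of the 2 control peaks lay a median of 70 bp apart in the members, with quartiles of 24 and 171 bp. They were within 50 bp of each other in 1064 members (41.9%) and over 200 bp apart in 537 (21.1%). Over all regions called in both control libraries these shares were 49.4% and 20.4%. In weak regions kept in 1 shCHD7-2 library they were 41.6% and 24.0%, and in those kept in both 46.8% and 23.3%. The median distance was 73 bp in the weak regions kept in 1 shCHD7-2 library and 58 bp in those kept in both. In the strong lost regions it was 37 bp. Between percentiles 60 and 70 the medians were 49 bp for lost regions, 53 bp for those kept in 1 library and 45.5 bp for those kept in both. Between 20 and 30 they were 88, 114 and 103 bp, so the order of the fates was not the same in both bands.

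The members covered 1468 kb, which is 22.8% of the length of all regions called in both control libraries. Their number and length depended on the lists: without control replicate 1 there were 5163 such regions, without control replicate 2 there were 5996 over 2308 kb, and with all lists shortened to the length of the shortest there were 783 over 517 kb, 699 of them among the 2542. Their median length was 551 bp, against 635 bp in weak regions kept in 1 shCHD7-2 library, 702 bp in those kept in both and 756 bp in strong lost regions. The length of a kept region also includes its shCHD7-2 peaks, so peak widths within a control list are the fairer measure. The median peak width in the members was 443 bp in control replicate 1 and 417.5 bp in replicate 2, with a mean of 430 ± 18.0 bp (SD, n = 2). The weak regions kept in both had 508 and 484.5 bp. A peak at the narrowest width of 200 bp was found in 4.76% of members in control replicate 1 and in 6.92% in replicate 2. Over all regions called in both control libraries the shares were 2.35% and 3.24%, and in weak regions kept in both they were 2.32% and 3.75%.

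At like rank, widths were close. Between percentiles 30 and 40, the median width in control replicate 1 was 423 bp for lost regions, 427 bp for those kept in 1 shCHD7-2 library and 400 bp for those kept in both. Between 50 and 60 the values were 534, 524 and 533 bp, and between 60 and 70 they were 586, 582 and 605 bp. In control replicate 2 the values between 50 and 60 were 482, 479.5 and 485 bp, and between 60 and 70 they were 533, 549 and 574.5 bp. In these bands of control replicate 1 the lost regions were not uniformly narrower or wider than the kept ones of like rank. In control replicate 2, lost regions had a lower median than those kept in both in each band from percentile 10 to 70. Between 30 and 40 it was 394 against 417 bp. In the lowest band, with 4 regions kept in both, it was higher. The quartiles of lost and kept regions overlapped. The widest members were a region of 1553 bp on chromosome 4 from 115519428 to 115520980, with 20 and 17 reads in control replicates 1 and 2, one of 1407 bp on the same chromosome from 89513024 to 89514430, with 17 and 16 reads, and one of 1367 bp on chromosome 11 from 9634813 to 9636179, with 20 and 18 reads. Their control summits lay 787, 891 and 485 bp apart.

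**Figure D3:**
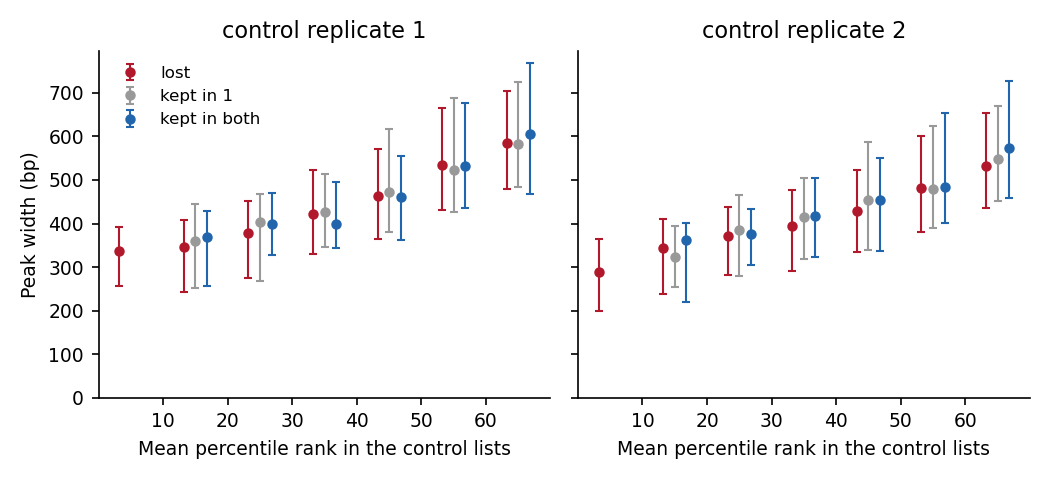
Width of control peaks (y axis, bp) in weak regions that were lost (red), kept in 1 shCHD7-2 library (grey) or kept in both (blue), by mean percentile rank (x axis), in control replicate 1 (left) and control replicate 2 (right). Points are medians, bars run from the lower to the upper quartile, and groups under 20 regions are left out; the 3 colours overlap in each band and all rise with rank.

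The reads around a peak set its local background, and this was lower in the members than in weak regions that were kept. The median local background was 1.26 and 1.16 reads in control replicates 1 and 2 for the members, 1.44 and 1.32 reads for weak regions kept in 1 shCHD7-2 library, and 1.55 and 1.42 reads for those kept in both. The background rose above the level of the library in 80.8% and 81.5% of members, against 90.6% and 92.3% of the weak regions kept in both. At like rank, lost regions still lay below those kept in both. Between percentiles 60 and 70 the medians in control replicate 1 were 1.48 reads for lost regions and 1.68 for those kept in both, and in control replicate 2 they were 1.34 and 1.56. In the 2 lowest bands this was not so, with 26 or fewer regions kept in both. Regions kept in 1 library did not always lie between: from 40 to 50 in control replicate 1 the medians were 1.3, 1.49 and 1.46 reads. The local background enters the -log10 p, so it is not independent of the rank.

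What pileup would the members have had in the shCHD7-2 libraries? If reads at a summit had risen with the library background, a median member would have had from 18 to 21 reads there, depending on the pair of libraries, and 100% of members would have stood at or above the lowest -log10 p listed. In regions called in all 4 libraries, however, the summit pileup in shCHD7-2 was a median of 0.725 to 0.846 times that in control. In the weak ones among them the median ratio was 1 to 1.17, but these had to be high enough to be called. With pileups multiplied by the ratio over all such regions and local backgrounds by the ratio of library backgrounds, the median member would have had 9 reads, and from 40.1% to 47.8% of members would have passed. The lowest pileup listed in either shCHD7-2 library was 8 reads. The same arithmetic passed 60.2% to 65.4% of the weak regions kept in both, which were in fact all listed, and 98.5% to 99.8% of the strong lost regions, which were not. An overall lowering of summits in the shCHD7-2 libraries and a change at the members themselves cannot be told apart for regions of this strength, since both follow the same division of 4 libraries.

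Positions along the genome did not enter the choice of members, although the same 4 lists supply the peaks around them, so the values below are descriptions. The nearest shCHD7-2 peak lay a median of 94670 bp from a member, against 62994 bp from weak regions kept in 1 shCHD7-2 library and 56337 bp from those kept in both, counting only peaks outside the region. The distance to the nearest other region called in both control libraries went the other way, with medians of 65401, 68072 and 87823.5 bp. Members thus lay closer to other control regions than the weak regions kept in both did, and farther from the peaks called after knockdown. This was not particular to the members. In strong lost regions the median was 129941 bp to a shCHD7-2 peak and 65261 bp to another control region. Over all regions called in both control libraries the medians were 71556 and 70627 bp. The distance to a shCHD7-2 peak was longer for lost regions in each band of rank from percentile 10 to 70. Between 60 and 70 it was 104655 bp against 69230 and 58600.5 bp.

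**Figure D4:**
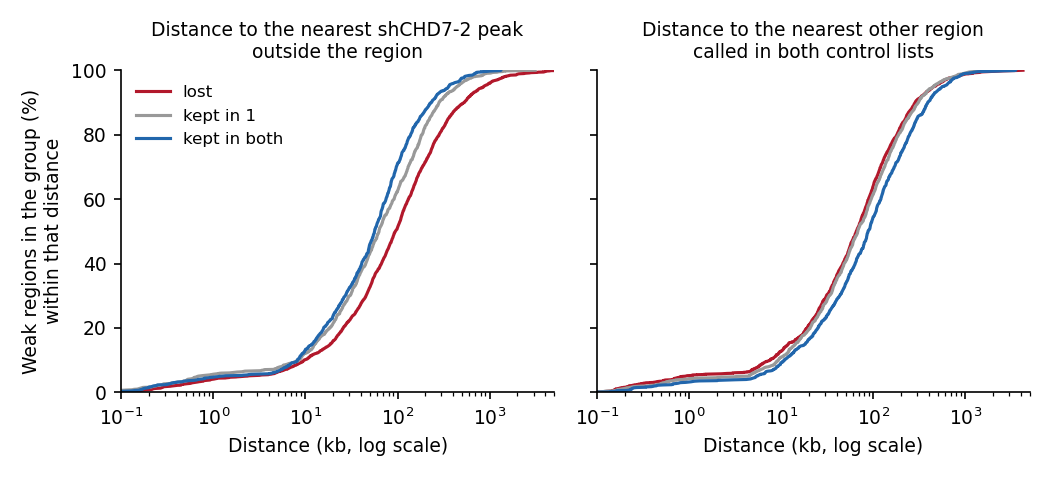
Share of weak control regions (y axis, percent, cumulative) within a given distance (x axis, kb, log scale) of the nearest shCHD7-2 peak outside the region (left) and of the nearest other region called in both control libraries (right). The red curve of lost regions lies right of the others on the left, with a median of 94670 bp against 62994 (grey, kept in 1 library) and 56337 bp (blue, kept in both), and at or left of them on the right.

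At short range, members had shCHD7-2 peaks about as often as control regions did in general, and at 100 kb less often. A peak of either shCHD7-2 library lay within 1 kb of 104 members (4.09%), within 10 kb of 259 (10.2%) and within 100 kb of 1299 (51.1%). Over all 8557 regions called in both control libraries the shares were 3.99%, 10.9% and 59.6%, and over the strong lost regions they were 2.72%, 7.90% and 41.7%. For weak regions kept in 1 library these shares were 5.65%, 12.1% and 62.4%, and for those kept in both they were 4.73%, 13.2% and 71.0%. Without shCHD7-2 replicate 2, the first 2 shares were 2.63% and 6.63%, and without control replicate 1 the first was 6.12%. The nearest peak within 1 kb came from shCHD7-2 replicate 1 at 40 members and from replicate 2 at 64, with median pileups of 13 and 13.5 reads. The closest of all lay 4 bp from a member on chromosome X from 71933870 to 71934291, which had 9 and 13 reads in control replicates 1 and 2, while the peak of shCHD7-2 replicate 1 beside it had 13 reads. On chromosome 17 from 74068538 to 74068811 the gap was 29 bp, to a peak of 13 reads in shCHD7-2 replicate 2. On chromosome 10 from 88281144 to 88282035 it was 47 bp, on chromosome 3 from 73046037 to 73046481 it was 58 bp, and on chromosome 2 from 236403555 to 236404359 it was 86 bp. At these 5 places a loss was called although the nearer border of a shCHD7-2 peak lay within 86 bp.

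Lost regions were often found beside lost regions, a comparison chosen after the values were seen. The nearest other region called in both control libraries had itself been lost for 1207 of the 2542 members (47.5%), against 749 of the 2588 weak regions that were kept (28.9%), a difference of 18.5 percentage points. The neighbours were of like rank, with a median mean percentile of 59.7 beside members and 61.3 beside kept regions. When only weak regions were taken as neighbours, the shares were 61.2% and 41.0%. The difference was 17.7 points for neighbours within 10 kb, 19.6 points between 10 and 100 kb and 16.5 points between 100 kb and 1 Mb. It lay between 15.7 and 27.2 points in each of the bands of rank under 70. By chromosome the share was higher beside members on 20 of 23, the exceptions being chromosomes 11, 14 and 21. A lost neighbour was not particular to the members. The nearest other control region had been lost for 205 of the 405 strong lost regions (50.6%). For strong regions kept in both shCHD7-2 libraries it had been lost for 569 of 2275. Over all 8557 regions called in both control libraries the share was 35.4%. Pairs of regions that are each other's nearest neighbour count on both sides, and regions of 1 genome are not replicates, so these shares are a description of the 4 libraries and carry no test.

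Along the chromosomes, 1128 members (44.4%) stood in runs of at least 3 successive control regions that were all lost, and 842 (33.1%) stood alone between kept ones. Runs were built from weak and strong lost regions alike. Of all 2947 lost regions, 956 stood alone, so this was not particular to the members. The stretches named next were chosen after their values were seen. The longest run held 16 control regions on chromosome 1 between 197893679 and 201924991, of which 11 were members and 5 were strong lost regions. The whole stretch held 1 shCHD7-2 peak, in replicate 2. The next 2 runs held 13 regions each. On chromosome 22 between 42466512 and 51021574 the run had 12 members, 1 strong lost region and 0 shCHD7-2 peaks.

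The other run of 13 lay on the short arm of chromosome 6 between 27059499 and 28249805, and all 13 of its regions were members. Its summits held 9 to 18 reads in control replicate 1 and 9 to 14 in replicate 2, with a median mean percentile of 42.2. The stretch held 1 shCHD7-2 peak, in replicate 2, and the distance from a member to the nearest shCHD7-2 peak ran from 19234 to 695806 bp. This arm is known for the largest cluster of human histone genes, which make the histones needed in S phase. Whether the 13 regions are promoters of that cluster was not determined here.

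Of windows of 1 Mb, 1316 held a member, 658 of them held exactly 1, and 62 held 5 or more. The same counts were not made for all control regions, so these do not show whether members cluster more than control regions do. The window with the most was on chromosome 1 from 1000001 to 2000000, near the end of the short arm, with 12 members among 13 weak control regions. These members were shallow, at 7 to 12 reads in control replicate 1 and 7 to 16 in replicate 2, and the window held 4 shCHD7-2 peaks. The second, on chromosome 9 from 131000001 to 132000000, had 10 members among 16 weak regions and 19 shCHD7-2 peaks, so there lost and kept regions were mixed. At the other extreme, the member farthest from any other region was on chromosome 9 from 41954818 to 41955200, at 3.22 Mb, with 9 and 8 reads. It was followed by chromosome 4 from 60419089 to 60419379, at 2.39 Mb with 14 and 11 reads, and by chromosome 3 from 162437465 to 162438090, at 1498086 bp with 13 and 7 reads.

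The share of weak control regions lost was uneven over the chromosomes. Chromosome 1 gave the most members, 291, because it had the most weak regions, 532. Of the chromosomes with 100 or more weak regions, chromosome 12 lost the highest share, 162 of 261 (62.1%, exact interval 55.9% to 68.0%), and chromosome 8 the lowest, 90 of 268 (33.6%, 28.0% to 39.6%). On chromosome 19 the share was 59.1% of 176 (51.4% to 66.4%). On the X chromosome it was 38.1% of 181 (31.02% to 45.6%). On chromosome 22, 32 of only 38 were lost (84.2%, 68.7% to 94.0%). The other chromosomes lay between 37.5% and 60%.

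**Figure D5:**
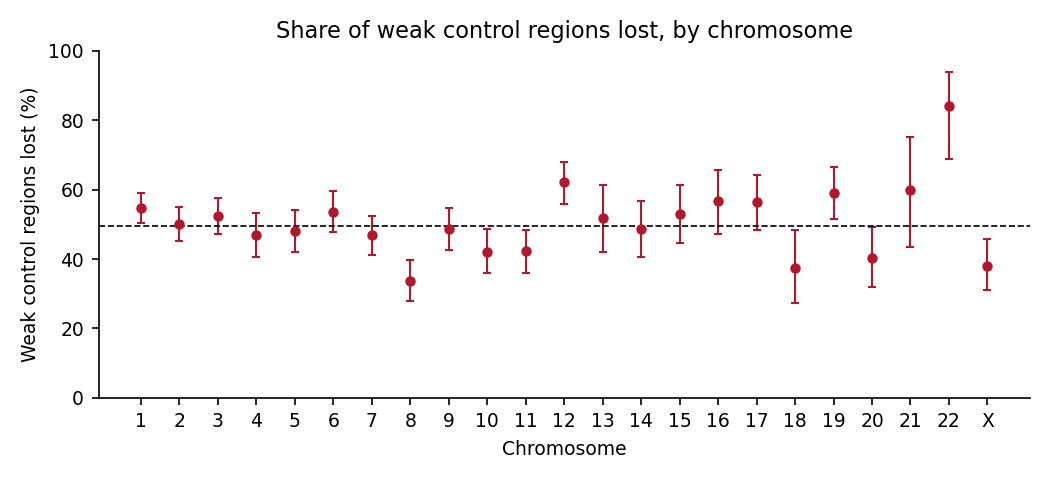
Share of weak control regions lost (y axis, percent) on each chromosome (x axis). Bars are exact binomial 95% intervals for counting error, and the dashed line is the share over all weak regions, 49.6%. The share runs from 33.6% on chromosome 8 to 84.2% on chromosome 22. The intervals treat regions as independent, although lost regions were often found beside lost regions, so they can be too narrow. No chromosome was tested against the line.

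The order of chromosomes 12 and 8 was seen at each level of strength. They had been picked by their shares, and the parts below divide the same regions, so this is a description and no separate support. With the range of ranks under 70 divided into 3 equal parts, from the lowest to the highest, chromosome 12 lost 83.3%, 73.1% and 49.6%, against 72.2%, 55.1% and 38.5% on the other chromosomes. Chromosome 8 lost 63.0%, 35.7% and 26.6%, against 73.1%, 57.1% and 39.9%. The lowest part held only 24 regions on chromosome 12 and 27 on chromosome 8. On chromosome X the shares were 40.9%, 45.6% and 30%, against 73.9%, 56.5% and 39.4% on the others.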

How the data were processed

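Peak lists from 4 ATAC-seq libraries of RKO cells were analysed, grouped and numbered by their titles. The authors called peaks for each library separately. The submitters' processing notes name Bowtie2 2.2.5, SAMtools 1.9, MACS2 2.1.2, deepTools 3.3.0 and hg19, without settings. The Tn5 shift and duplicate removal are not given in the sources used here. The deposited columns used were peak borders and summits, the fold enrichment (a ratio of pileup to local background, each plus 1), and the -log10 p-value and -log10 q-value. The deposited score repeats the q-value and was not used. Lists end at a q of 0.05.

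Peaks sharing at least 1 bp on chromosomes 1 to 22 and X were merged. Percentile ranks were taken within all peaks of a list, and the strongest peak of a region counted. A whole-number pileup and a background were solved from fold enrichment and -log10 p, within 0.001 in 100% of peaks. This and the choice of regions were also run on simulated data, made with the same formula and with planted groups of separate strength. That checks the arithmetic and the rule only, not how they perform where strengths overlap. A library's background is the most frequent value in its list. Depth, as read totals, is unknown. Distances are between borders.

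The members, lists and named regions were chosen with earlier results of these data known. The regions named are the 5 highest and 3 lowest members by mean percentile, 3 lost regions past the limit, the 3 widest, the 3 with the largest difference between controls, the 3 farthest from any region and the 5 nearest to a shCHD7-2 peak. Runs and windows were chosen after their values were seen. No test over samples was made, because the calls define the members. Planned results on promoters, GC content and motifs were not run, since a genome and annotation of hg19 were not used. Alternatives were other thresholds, overlaps, list lengths and rank limits, and leaving out each library. The scripts ran under Python 3.11.15 with pandas 2.3.3, NumPy 2.4.6, SciPy 1.17.1 and, for plots, matplotlib 3.10.9.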

Additional observations from a re-analysis of the deposited data

How the results depend on the processing

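No paired analysis was possible because no result comes from a test over samples. The number of members stayed within 1.5 times of 2542 except with a -log10 q of at least 5 (1558), with every list shortened to its top peaks, as many as in the shortest list (783) and without a control library, where a single library decides a call: leaving out each library gave 3126 to 5996 regions, namely 5163 without control replicate 1 and 5996 without control replicate 2. Of the 2542 members, 879 were still members at a -log10 q of at least 5, and 699 with equal lists, which remove weak control peaks by construction.

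The share of weak control regions lost, 49.6%, was 51.0% at a -log10 q of at least 2, 69.0% at 5 or more, 42.3% with equal lists, 54.9% and 44.4% with rank limits of 60 and 80, 54.6% with the limit of 70 in each control list, 47.0% when ranked by fold enrichment, and 61.0% to 66.7% leaving out each library. The covered length, 1468 kb, was 1058 kb at a -log10 q of at least 5, 517 kb with equal lists, 1596 kb with peaks within 500 bp merged, 1217 and 1663 kb with rank limits of 60 and 80, and 1836 to 2308 kb leaving out each library. Mean median width (430 bp) was 531 bp at a -log10 q of at least 5, 526 bp with equal lists and 359 to 440 bp leaving out each library. Median pileup (11.5 reads) was 14.5, 14 and 10 to 12 reads in the same order.

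The share of members with a shCHD7-2 peak within 1, 10 and 100 kb was 1.22%, 3.72% and 29.3% at a -log10 q of at least 5, and 2.94%, 8.05% and 47.5% with equal lists. Merging peaks within 500 bp gave 1.14% and 7.27% for the first 2 distances, and a -log10 q of at least 2 gave 48.9% for the last. Leaving out each library gave 2.63% to 6.12%, 6.63% to 12.8% and 39.9% to 55.1%, in each case lowest without shCHD7-2 replicate 2 and highest without control replicate 1. The difference between members and kept regions in how often the nearest control region was lost, with alternatives added after seeing the data, was 28.6 points at a -log10 q of at least 5 and 12.5 to 17.1 points leaving out each library, and stayed above 0 in each setting run. Within parts of the range of ranks, chromosome 8 lost 63.0% (lowest) and 26.6% (highest) against 33.6% in all, and chromosome 12 lost 83.3%, 73.1% and 49.6% against 62.1%. Promoter and GC alternatives were not run. Why the other values moved was not tested.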
